A study of Mus musculus with 8 samples.

Results

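The genes described are 35 antiviral effector genes that type I interferon induces, in mouse dendritic cells of 2 genotypes, Gata1 knock-out (KO) and wild type (WT). The members were listed by name as known interferon-stimulated effectors, and all 35 were among the 23420 features of the deposited table of read counts. RNA sequencing libraries had been made from cells at steady state and from cells given LPS, the bacterial lipopolysaccharide that toll-like receptor 4 senses, with 2 libraries in each of the 4 groups. The series title places the study around GATA1, movement towards CCL21 and polysialic acid. The groups were WT at steady state, KO at steady state, WT with LPS and KO with LPS. The sources used here do not give the strain, age and sex of the mice, how the knock-out was made, where the dendritic cells came from, or the dose and duration of LPS. No label says that 2 libraries of a group stem from different animals or cultures, so the spread that the p-values rest on may be technical only.

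Type I interferons bind the receptor formed by IFNAR1 and IFNAR2, and the kinases JAK1 and TYK2 then pass the signal to transcription factors, STAT2 and IRF9 among them. These act at interferon-stimulated response elements (ISREs) near the start of target genes. In dendritic cells LPS can start this chain itself, because toll-like receptor 4 signals through TICAM1 and TICAM2 to IRF3, which turns on the interferon beta gene. The products of the target genes act on viral RNA, on viral entry and release, and on the signalling chain.

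Total counts ran from 8005151 to 15495249 per library. Gata1 had 0 reads in all 4 KO libraries. It had 1 and 10 reads in the WT steady-state libraries and 0 and 1 in the WT libraries with LPS. Only the 10 reads of WT steady-state library 2 bear on the labels, and the cells they came from are not known. Of 11 dendritic cell markers, 1 fell with LPS in WT and 5 in KO by edgeR (Itgax, Flt3, Zbtb46, Batf3 and Cd209a). Their summed level was 8431 to 20990 CPM (counts scaled to the library size) in WT and KO steady state and WT with LPS. It was 3600 and 7243 CPM in KO with LPS, where Flt3 was at 0.452 and 0.306 CPM and Cd209a at 0. The sum was mostly Cd74 and H2-Ab1, at 14930 and 3971 CPM in WT steady-state library 1. Xcr1, at no more than 9.12 CPM, was called higher in the mean over genotypes, and Clec9a had a log2 change of 0.19 in KO. Of 8 macrophage markers, 4 fell with LPS in each genotype (C1qa, C1qb, C1qc and Apoe). In the mean over genotypes 5 fell and 1, Emr1, rose (log2 change 1.41, edgeR adjusted p = 0.016). Apoe was at 44.4 and 48.9 CPM in WT and 947 and 372 CPM in KO with LPS. It was called higher in KO there (log2 difference 3.82, edgeR adjusted p = 0.0412). The 5 markers of plasmacytoid dendritic cells, a strong source of interferon, summed to 22.7 to 96.6 CPM, mostly Tcf4. With LPS Tcf4 was at 59.9 and 93.9 CPM in WT and 31.7 and 18.1 CPM in KO. The defining gene Siglech was at no more than 0.708 CPM. Of the 4 tested, 1 rose in the mean over genotypes and 0 fell. This was Cox6a2 (log2 change 3.56, edgeR adjusted p = 0.0111), at no more than 6.78 CPM. Neutrophil markers summed to 242 CPM in WT steady-state library 2 and 25.7 to 80.1 CPM elsewhere. Of 6 tested, 1 rose with LPS in KO and 0 fell. This was Camp (log2 change 5.78, edgeR adjusted p = 0.0221), at 9.38 and 10.1 CPM in KO with LPS. In the mean over genotypes 1 neutrophil marker rose and 2 fell. Mast cell and basophil markers summed to 88.4 CPM in WT steady-state library 2, which held the 10 Gata1 reads, and to 0 to 2.70 CPM elsewhere. Whether the Gata1 reads came from such cells was not tested. The part of these markers in the members' results was not tested. In bulk RNA, fewer cells of a type and less RNA per cell cannot be told apart.

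Promoter windows, 250 bases before to 50 bases after the start of transcription, were found for 26 of the 35 members in the RefSeq annotation of GRCm38.p6. The ISRE core, searched on both strands, stood in the windows of 11 of these 26 members (42.3%) and in those of 1079 of 27025 genes with a window (3.99%). The 11 were Ifit1, Ifit3, Isg15, Oas1a, Oas1g, Oas3, Eif2ak2, Ddx60, Rsad2, Bst2 and Ifitm3, and 8 of them held 2 or more matches. Windows of Rsad2, Isg15, Ifit1 and Ifit3 are shown because, among members with a match, these had the largest change with LPS. The window of Cmpk2 is shown because this gene lies beside Rsad2 and is read away from it, with 12751 bases between them. Each is written 5′ to 3′ on the strand of its gene, and capitals mark every match to the ISRE core on either strand. In the order printed they lie at chr12:26456403-26456702 (minus strand), chr4:156200769-156201068 (minus strand), chr19:34640639-34640938 (plus strand), chr19:34583279-34583578 (plus strand) and chr12:26468965-26469264 (plus strand).
Rsad2: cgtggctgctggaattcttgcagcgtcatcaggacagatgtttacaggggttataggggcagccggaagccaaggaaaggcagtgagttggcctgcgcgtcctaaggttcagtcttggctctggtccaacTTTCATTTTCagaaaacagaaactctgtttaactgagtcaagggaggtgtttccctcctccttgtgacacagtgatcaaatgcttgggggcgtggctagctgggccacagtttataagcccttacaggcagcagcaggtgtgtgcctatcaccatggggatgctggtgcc
Isg15: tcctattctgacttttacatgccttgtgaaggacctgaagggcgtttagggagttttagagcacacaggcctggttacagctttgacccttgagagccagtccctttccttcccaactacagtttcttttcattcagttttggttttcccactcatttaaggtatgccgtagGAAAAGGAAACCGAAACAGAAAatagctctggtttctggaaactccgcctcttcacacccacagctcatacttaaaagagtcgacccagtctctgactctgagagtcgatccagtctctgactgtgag
Ifit1: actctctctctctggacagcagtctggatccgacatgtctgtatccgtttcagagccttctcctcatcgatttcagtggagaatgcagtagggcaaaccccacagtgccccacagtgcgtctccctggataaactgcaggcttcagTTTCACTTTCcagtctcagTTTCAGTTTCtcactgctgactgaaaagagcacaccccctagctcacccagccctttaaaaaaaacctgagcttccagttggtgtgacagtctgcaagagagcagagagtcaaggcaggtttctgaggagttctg
Ifit3: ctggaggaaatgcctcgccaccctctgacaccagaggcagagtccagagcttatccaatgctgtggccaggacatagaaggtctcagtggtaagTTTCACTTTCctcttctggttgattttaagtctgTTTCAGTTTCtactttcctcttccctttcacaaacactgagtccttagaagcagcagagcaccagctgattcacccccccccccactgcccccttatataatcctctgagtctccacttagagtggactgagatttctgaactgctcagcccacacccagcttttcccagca
Cmpk2: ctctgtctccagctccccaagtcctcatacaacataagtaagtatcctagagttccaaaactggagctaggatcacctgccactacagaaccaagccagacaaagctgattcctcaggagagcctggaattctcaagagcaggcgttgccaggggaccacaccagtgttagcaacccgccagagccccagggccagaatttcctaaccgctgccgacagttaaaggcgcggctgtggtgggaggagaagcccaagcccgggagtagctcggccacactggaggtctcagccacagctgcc
The single match of Rsad2 lay 120 to 111 bases before the start, the 3 matches of Isg15 between 78 and 57 bases before it, the 2 of Ifit1 between 104 and 76, and the 2 of Ifit3 between 156 and 113. The Cmpk2 window held no match, which says only that the motif is not in it. Of the other motifs searched on both strands, TTCNNNGAA (named GAS) was found in 8 of 26 members (30.8%) against 9.55% of genes, and in Bst2 and Ifitm3 a GAS match overlapped an ISRE match. The NF-kB motif was found in 0 of the 26 members and in 1.89% of genes. The GATA factor motif, AGATAA, was found in Isg20, Oas3 and Oasl2, or 11.5% of the members with a window against 12.7% of genes. A match describes letters and is not a site or a cause.

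Most of the effectors rose with LPS in both genotypes. Averaged over the genotypes, 29 of 35 members rose and 0 fell by edgeR's quasi-likelihood test at a Benjamini-Hochberg adjusted p under 0.05, where 13.8% of the 12442 genes tested rose and 14.8% fell. The median log2 change was 2.72 over the members and -0.01 over all genes tested. In WT 25 rose, against 3% of genes tested (3.49% fell), with a median of 2.72, and in KO 27 rose, against 5.3% of genes (6.46% fell), with a median of 2.97. Both genotypes shared 25 of these calls, Mx2 and Sp100 passed in KO alone, and the other 8 passed in neither. All 4 LPS libraries lay above all 4 steady-state libraries for 27 members (77.1%), where 16% of genes tested did so, and 0 members lay below, against 17% of genes. Within WT this held for 29 members above and 1 below, Mx1, against 27.5% and 29.1% of genes, and within KO for 32 above and 1 below, Mx1, against 34.4% and 38.2%. The WT count rested on the steady-state libraries: 8 members were called without WT steady-state library 1 and 9 without library 2, in fits that called 0.543% and 0.931% of all genes. Likewise 9 were called in KO without KO steady-state library 1 and 13 without library 2, with 1.12% and 1.11% of all genes, while the mean over genotypes kept at least 26 calls whichever library was left out.

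**Figure D1:**
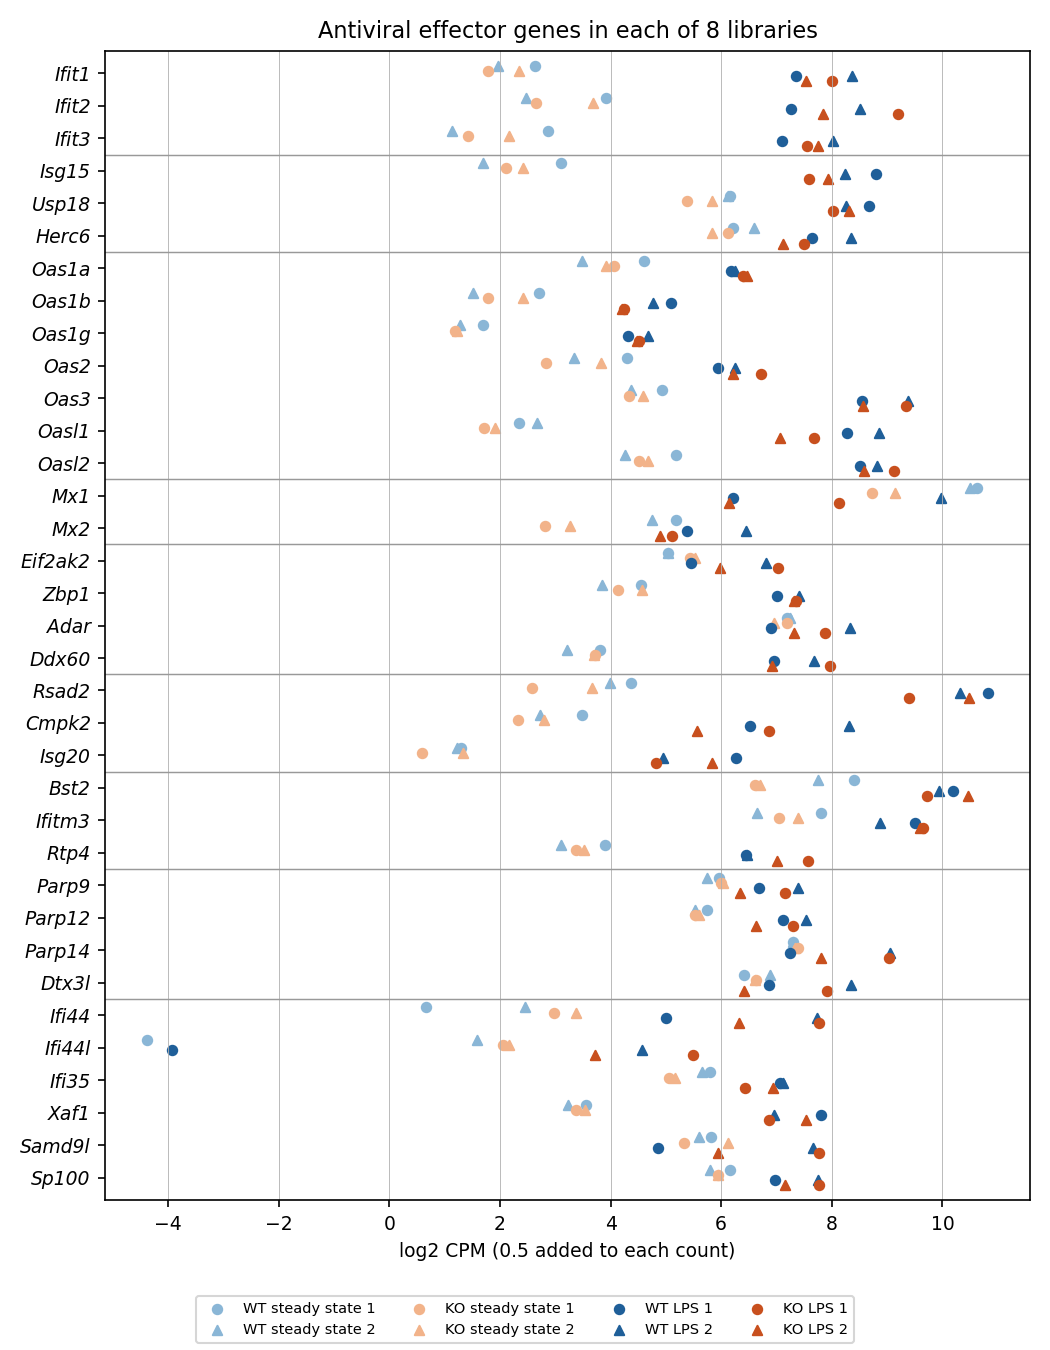
Level of each of the 35 members in every library, as log2 CPM with 0.5 added to the count, by role, with 1 point for each library. In 27 members the 4 points with LPS lie above the 4 at steady state, while Mx1 lies highest at steady state in WT, and the lowest points are Ifi44l in the WT libraries numbered 1, which held 0 reads.

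The IFIT proteins bind viral RNA that lacks the marks of host messenger RNA, and Ifit1, Ifit2 and Ifit3 stood among the strongest responses. Ifit1 was at 6.18 and 3.87 CPM in WT and 3.41 and 5.05 CPM in KO at steady state, and at 164 and 328 CPM in WT and 256 and 185 CPM in KO with LPS. Its log2 change was 5.62 ± 0.50 (SE) in WT (edgeR adjusted p = 0.00372) and 5.70 ± 0.50 in KO (adjusted p = 0.00297). Each LPS library thus lay far above each steady-state library, and the genotypes overlapped under both treatments. Ifit2 was at 15.2 and 5.50 CPM in WT and 6.28 and 12.8 CPM in KO at steady state, and at 154 and 364 CPM in WT and 588 and 231 CPM in KO with LPS. Ifit3 was at 7.24 and 2.16 CPM in WT and 2.64 and 4.43 CPM in KO at steady state. With LPS it was at 137 and 260 CPM in WT and 187 and 216 CPM in KO. Ifit2 and Ifit3 were higher in all 4 LPS libraries. Their mean log2 changes over the genotypes were 5.04 ± 0.57 (edgeR adjusted p = 0.00177) for Ifit2 and 5.62 ± 0.47 (adjusted p = 0.000668) for Ifit3.

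ISG15 is a ubiquitin-like protein attached to other proteins, HERC6 is the mouse ligase that attaches it, and USP18 removes it and also restrains signalling at the receptor. Isg15, on chromosome 4 at 156199424 to 156200818 of mm10, was at 8.60 and 3.20 CPM in WT and 4.27 and 5.31 CPM in KO at steady state. With LPS it was at 445 and 304 CPM in WT and 192 and 243 CPM in KO. The log2 change was 5.998 ± 0.55 in WT (edgeR adjusted p = 0.00384) and 5.50 ± 0.54 in KO (adjusted p = 0.00315). Both KO libraries with LPS lay below both WT ones, a log2 difference of -0.78 ± 0.44 that did not pass (edgeR adjusted p = 0.429). Usp18 was at 71.9 and 69.8 CPM in WT and 41.7 and 56.8 CPM in KO at steady state, and at 405 and 306 CPM in WT and 259 and 317 CPM in KO with LPS. It therefore began from a higher level than Isg15 in CPM and its mean change was smaller, 2.44 ± 0.21 on the log2 scale (edgeR adjusted p = 0.000674). Herc6 rose by 1.48 ± 0.23 (edgeR adjusted p = 0.0053), the least of the ISG15 genes.

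The OAS enzymes make the second messenger that activates RNase L when they meet double-stranded RNA, and OASL1 lacks that activity. All 7 rose in both genotypes, with mean log2 changes from 2.25 for Oas1a to 5.84 for Oasl1. A block by replicate number ended the calls for Oas2 in WT and Oas1b in KO, and a fit of the compared groups alone ended those for Oas1a, Oas1b and Oas2 in WT. Oasl1, which in mice restrains translation of Irf7, lies on chromosome 5 at 114923240 to 114937915 of mm10. It was at 5.02 and 6.32 CPM in WT and 3.26 and 3.72 CPM in KO at steady state, and at 309 and 461 CPM in WT and 204 and 134 CPM in KO with LPS. Its log2 change was 6.08 ± 0.39 in WT (edgeR adjusted p = 0.00279) and 5.60 ± 0.39 in KO (adjusted p = 0.00199). The KO libraries lay below the WT ones under both treatments. Oas3 was at 30.6 and 20.5 CPM in WT and 20.2 and 24 CPM in KO, and at 374 and 666 CPM in WT and 651 and 378 CPM in KO with LPS. Oasl2 was at 36.3 and 19.2 CPM in WT and 22.9 and 25.4 CPM in KO, and at 366 and 450 CPM in WT and 559 and 383 CPM in KO with LPS. These 2 genes had mean log2 changes of 4.44 ± 0.33 and 4.08 ± 0.29, with the genotypes overlapping under LPS. Reads of Oas1a, Oas1b and Oas1g, near-identical neighbours, may have been split among them, so their separate values are uncertain.

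Oas1b and Oas2 moved least alike in the genotypes within this family. Oas1b was at 6.47 and 2.83 CPM in WT and 3.41 and 5.31 CPM in KO at steady state, and at 34.0 and 27.1 CPM in WT and 18.9 and 18.4 CPM in KO with LPS. Oas2 was at 19.6 and 10.04 CPM in WT and 7.13 and 14.2 CPM in KO, and at 61.6 and 76.3 CPM in WT and 106 and 74.3 CPM in KO with LPS. The KO response minus the WT response was -0.63 ± 0.61 for Oas1b and 0.86 ± 0.61 for Oas2 on the log2 scale, and neither passed (edgeR adjusted p = 1 and 0.96).

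The Mx genes encode GTPases that trap viral nucleoproteins, and their 2 members behaved unlike the rest and unlike each other. Mx1, on chromosome 16 at 97447035 to 97462907 of mm10, was at 1589 and 1452 CPM in WT and 424 and 562 CPM in KO at steady state. With LPS it was at 74.6 and 1001 CPM in WT and 278 and 70.3 CPM in KO. It was the only member whose log2 change with LPS was negative, -1.50 ± 1.06 in WT and -1.50 ± 1.06 in KO. The libraries did not overlap between treatments within a genotype, yet the LPS libraries of a genotype lay so far apart that neither change passed (edgeR adjusted p = 0.393 and 0.351). Without WT LPS library 2, the one at 1001 CPM, Mx1 was called lower in WT, at -4.35 (edgeR adjusted p = 0.0165), and in the mean over genotypes, at -2.92 (adjusted p = 0.00502). At steady state Mx1 alone made up 47.9% and 51.2% of the members' counts in WT and 25.9% and 29.9% in KO, so the summed level of the family depends on it. The members together took 0.348% and 0.305% of all counts in WT and 0.173% and 0.209% in KO at steady state. Without Mx1 the shares were 0.181% and 0.149% in WT and 0.128% and 0.146% in KO. With LPS they were 0.732% and 1.03% in WT and 0.870% and 0.644% in KO without Mx1, so the genotypes overlapped there.

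Mx2, the neighbour of Mx1, was at 36.4 and 26.9 CPM in WT and 6.98 and 9.56 CPM in KO at steady state. With LPS it was at 41.5 and 87.5 CPM in WT and 34.5 and 29.5 CPM in KO. Both KO libraries lay below both WT libraries under each treatment. Mx2 rose in KO, by 1.95 ± 0.40 (edgeR adjusted p = 0.0265), and had a log2 change of 1.03 ± 0.39 in WT (adjusted p = 0.146), a change that was called without WT LPS library 1. The difference of the responses, 0.92 ± 0.55, did not pass (edgeR adjusted p = 0.9), so the genotypes are not shown to respond differently.

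Among sensors and editors of nucleic acid, Zbp1, Ddx60 and Eif2ak2 rose in the mean over genotypes and Adar did not pass. Ddx60, an RNA helicase, was at 13.9 and 9.29 CPM in WT and 13.2 and 13.0 CPM in KO, and at 124 and 204 CPM in WT and 250 and 121 CPM in KO with LPS. Its mean log2 change was 3.82 ± 0.33 (edgeR adjusted p = 0.000676), and Zbp1, a sensor of Z-form nucleic acid, rose by 2.98 ± 0.23. Adar, which edits adenosine to inosine in double-stranded RNA, was already at 146 and 152 CPM in WT and 145 and 124 CPM in KO. With LPS it was at 120 and 320 CPM in WT and 234 and 159 CPM in KO, so WT overlapped between treatments, and the mean change of 0.56 ± 0.32 did not pass (edgeR adjusted p = 0.211). Of the exon bases of Adar 16.8% overlap a gene on the opposite strand, and the library kit does not mark strand. Eif2ak2, the kinase PKR, rose by 1.18 ± 0.34 (edgeR adjusted p = 0.0403).

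RSAD2 (viperin) makes a chain-terminating nucleotide from CTP, CMPK2 is a kinase that supplies nucleotides, and ISG20 is an exonuclease. Rsad2, on chromosome 12 at 26442746 to 26456452 of mm10, was at 20.8 and 15.8 CPM in WT and 5.97 and 12.7 CPM in KO at steady state. With LPS it was at 1806 and 1279 CPM in WT and 672 and 1427 CPM in KO. It had the largest change of the 35 in both genotypes, 6.40 ± 0.62 in WT and 6.82 ± 0.63 in KO on the log2 scale, and 6.61 ± 0.44 in the mean (edgeR adjusted p = 0.000357). Cmpk2 was at 11.2 and 6.54 CPM in WT and 4.96 and 6.91 CPM in KO, and at 92.3 and 319 CPM in WT and 116 and 47.0 CPM in KO with LPS. It rose by 4.54 ± 0.74 in WT (edgeR adjusted p = 0.0169) and 3.78 ± 0.72 in KO (adjusted p = 0.0214). Although the 2 genes lie side by side, Rsad2 was higher in WT LPS library 1 and KO LPS library 2 and Cmpk2 in the other pair. Isg20 rose by 4.51 in WT and 4.43 in KO.

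BST2 (tetherin) holds budding virus at the cell surface, IFITM3 blocks fusion in endosomes, and RTP4 is a chaperone of receptors. Bst2, on chromosome 8 at 71534255 to 71537456 of mm10, was at 336 and 217 CPM in WT and 97.6 and 104 CPM in KO at steady state. With LPS it was at 1169 and 986 CPM in WT and 841 and 1406 CPM in KO. KO lay below WT at steady state and spanned it with LPS. Ifitm3 was at 223 and 101 CPM in WT and 132 and 167 CPM in KO, and at 726 and 471 CPM in WT and 799 and 775 CPM in KO with LPS. Rtp4 was at 14.9 and 8.55 CPM in WT and 10.4 and 11.4 CPM in KO, and at 87.5 and 88.5 CPM in WT and 191 and 128 CPM in KO with LPS. For Ifitm3 and Rtp4, KO lay above WT with LPS and overlapped it at steady state. All 3 genes rose in each genotype, from 1.88 ± 0.43 for Ifitm3 in WT (edgeR adjusted p = 0.0481) to 3.87 ± 0.36 for Rtp4 in KO (adjusted p = 0.00297). Calls for Bst2 and Ifitm3 in WT were lost with the replicate number as a block and with only the groups compared.

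Scaled by exon length, Bst2 and Ifitm3 were the most abundant members with LPS, at a mean of 1193 and 882.5 CPM per kb in WT and 1244 and 1161 CPM per kb in KO. Isg15 followed at 495 and 288 CPM per kb and Rsad2 at 356 and 242 CPM per kb in WT and KO. At steady state the order began with Mx1 (402), Bst2 (306) and Ifitm3 (239 CPM per kb) in WT and with Ifitm3 (220.5), Mx1 (130) and Bst2 (112 CPM per kb) in KO. The order of neighbours was not tested.

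The ADP-ribosylation group comprises Parp9 and its ubiquitin ligase partner Dtx3l, Parp12 and Parp14, and its changes were among the smaller ones. Parp9 was at 62.3 and 53.3 CPM in WT and 64.2 and 65.8 CPM in KO, and at 103 and 168 CPM in WT and 142 and 80.8 CPM in KO with LPS. Parp14 was at 158 and 157 CPM in WT and 168 and 161 CPM in KO, and at 151 and 529 CPM in WT and 524 and 222 CPM in KO with LPS. Dtx3l was at 85.0 and 118 CPM in WT and 99.1 and 97.6 CPM in KO, and at 117 and 324 CPM in WT and 242 and 85.3 CPM in KO with LPS. The steady-state libraries of Parp14 lay within a narrow range while 1 LPS library of each genotype was over 500 CPM, and WT overlapped between treatments. Parp9 and Parp12 rose in the mean over genotypes, by 1.003 ± 0.25 and 1.57 ± 0.21 (edgeR adjusted p = 0.0238 and 0.00309). The mean changes of 1.15 ± 0.43 for Parp14 and 0.93 ± 0.42 for Dtx3l did not pass (edgeR adjusted p = 0.0809 and 0.128). Parp9 and Dtx3l share 458 exon bases on opposite strands, so their reads cannot be fully told apart.

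Of the other 6 members Ifi44, Ifi35, Xaf1 and Sp100 rose in the mean over genotypes. Ifi44 was at 1.55 and 5.43 CPM in WT and 7.83 and 10.4 CPM in KO, and at 32.0 and 212 CPM in WT and 218 and 80.2 CPM in KO with LPS. Ifi35 was at 55.8 and 50.2 CPM in WT and 33.3 and 36.0 CPM in KO, and at 134 and 139 CPM in WT and 85.8 and 122 CPM in KO with LPS. Ifi44 was thus higher in KO than in WT at steady state without overlap, and Ifi35 lower under both treatments. Samd9l was at 56.1 and 48.6 CPM in WT and 40.1 and 70.1 CPM in KO, and at 29.0 and 203 CPM in WT and 218 and 61.7 CPM in KO with LPS, and its mean change of 1.25 ± 0.62 did not pass (edgeR adjusted p = 0.163). Sp100, of nuclear bodies, was at 71.2 and 55.9 CPM in WT and 61.3 and 61.4 CPM in KO, and at 126 and 216 CPM in WT and 219 and 142 CPM in KO with LPS. It rose by 1.56 ± 0.35 in KO (edgeR adjusted p = 0.0326), while the change of 1.43 ± 0.35 in WT missed the threshold (adjusted p = 0.0548). Xaf1 rose by 4.05 ± 0.40 in WT and 3.78 ± 0.40 in KO (edgeR adjusted p = 0.00464 and 0.00389).

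Ifi44l, the neighbour of Ifi44 with 8776 bases between them, had 0 and 40 reads in the WT steady-state libraries and 53 and 50 in KO. With LPS it had 0 and 383 reads in WT and 398 and 86 in KO. The libraries at 0 were both WT libraries numbered 1. A count of 0 allows up to 3 reads, or 0.29 CPM at steady state and 0.397 CPM with LPS, by counting error only. Library 2 was therefore at least 10.3-fold higher than library 1 in WT at steady state and at least 59.7-fold higher with LPS. No change of Ifi44l passed in any of the 6 comparisons, but some other fits called its rise. A fit of the compared groups alone called it in KO, and a fit with no filter called it in the mean over genotypes. With the replicate number as a block within each genotype, it was called in KO and in the mean.

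**Figure D2:**
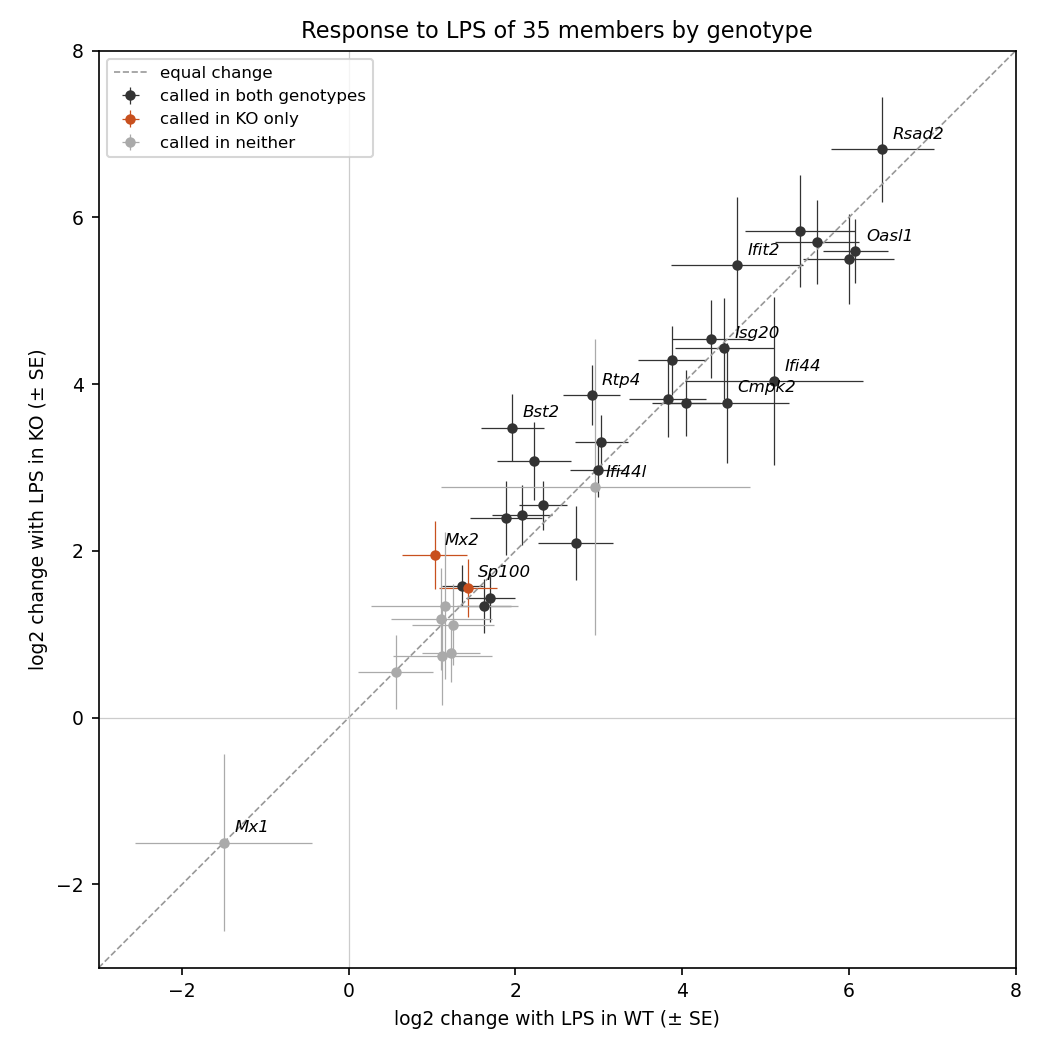
Log2 change with LPS in WT (horizontal) against KO (vertical) for the 35 members, with bars for the SE. The members spread along the diagonal from Mx1 at -1.50 in both genotypes to Rsad2 at 6.40 in WT and 6.82 in KO.

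The question set by the design is whether the knock-out altered the response to LPS. The difference of the responses, KO minus WT, passed for 0 of 35 members, as for 0% of all genes tested by edgeR. At an unadjusted p under 0.05 it held for 1 member, Bst2, where 6.41% of genes tested passed, and DESeq2 called 0 members, as 0.992% of genes. The median difference was 0.07 on the log2 scale, 18 members were positive and 17 negative, and the values ran from -1.07 for Ifi44 to 1.52 for Bst2. The median SE of a difference was 0.595, and with 2 libraries a group a difference must exceed its SE several-fold to pass. The 1.52 ± 0.52 of Bst2 did not pass, so the 0 calls do not show that the responses were equal. The changes in WT and KO correlated across the 35 members with Pearson's r of 0.959 and Spearman's rho of 0.948. Genes are not independent replicates, so this describes only the order of the members.

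Bst2 showed the largest difference of responses, 1.52 ± 0.52 (unadjusted p = 0.0203, edgeR adjusted p = 0.651), between a change of 1.96 ± 0.37 in WT and 3.48 ± 0.40 in KO. Its lower steady-state level in KO and a KO against WT difference with LPS of 0.06 ± 0.36 make up this value. Rtp4 had 0.96 ± 0.46 (edgeR adjusted p = 0.829), which came from its level with LPS. Cmpk2 had -0.76 ± 0.93 and Ifi44 -1.07 ± 1.30, each with an SE larger than its value, and the sign of both turned when 1 library was left out.

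**Figure D3:**
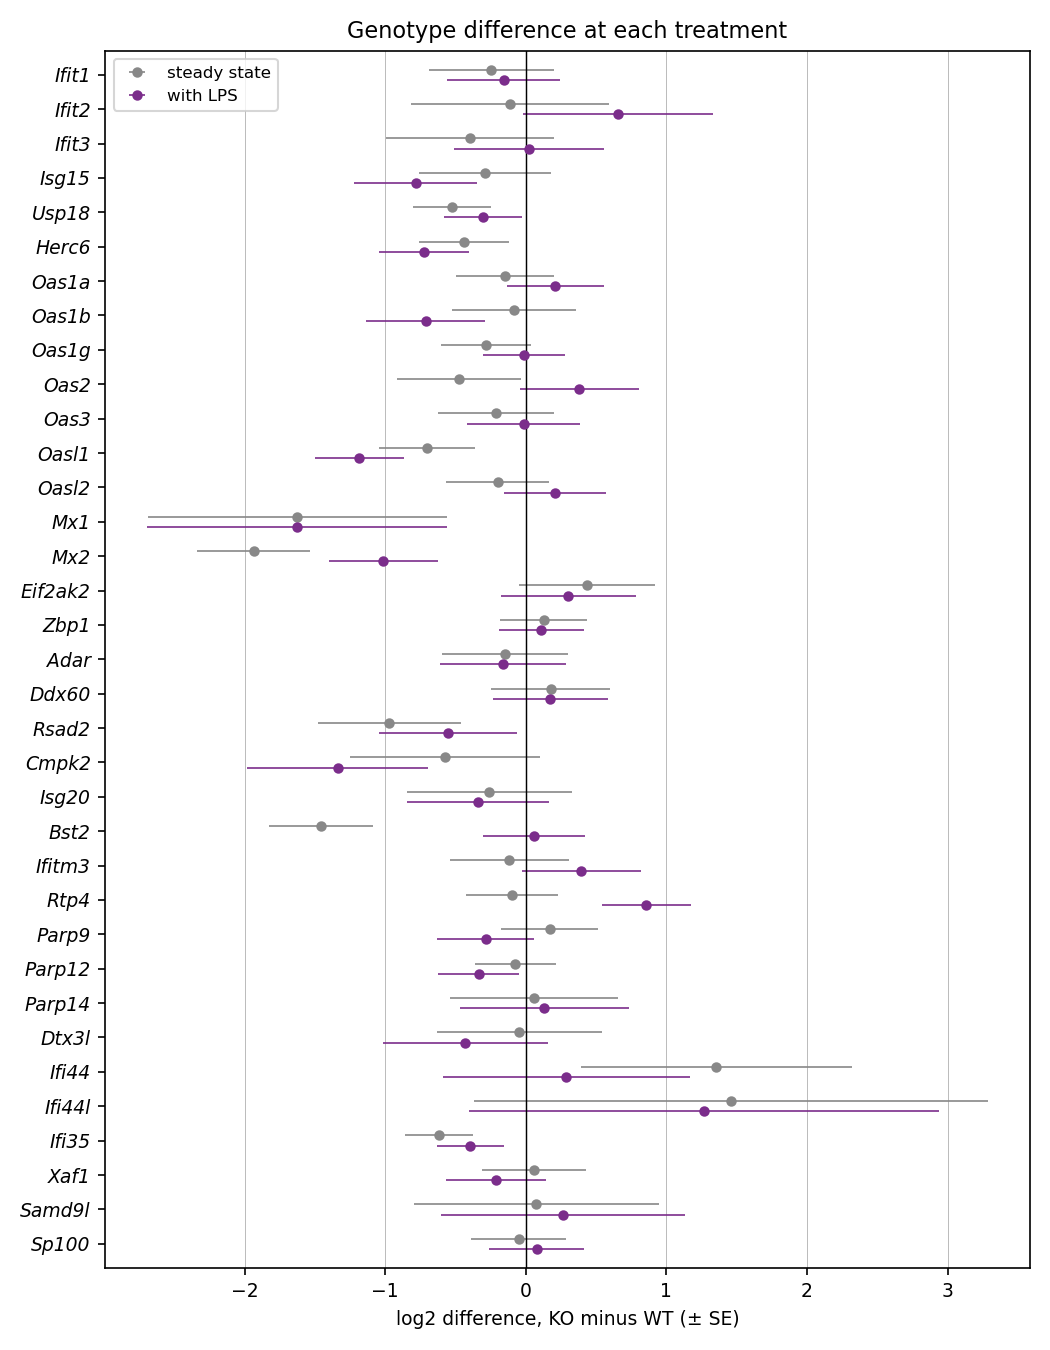
Log2 difference KO against WT for each of the 35 members at steady state and with LPS, with bars for the SE. At steady state 26 members lie below 0 and 9 above, and with LPS 19 lie below and 16 above, and no member passed in either comparison.

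At steady state 0 of 35 members differed between genotypes by edgeR's adjusted p, as 0% of genes tested did. Of the 35, 3 members passed an unadjusted p under 0.05, where 2.63% of genes did, and DESeq2 called 1, Mx2, as lower, as 0.155% of genes in either direction. These 3 were Mx2 with -1.94 ± 0.40 (unadjusted p = 0.00165, edgeR adjusted p = 0.838), Bst2 with -1.46 ± 0.37 (0.00504 and 1) and Ifi35 with -0.61 ± 0.24 (0.0366 and 1). In each, both KO libraries were lower than both WT libraries. In all 10 members were lower in both KO libraries (28.6%, against 23.4% of genes tested) and 5 were higher (14.3%, against 22.1%), a share near the background for the lower ones. The 5 that were higher were Eif2ak2, Parp9, Parp14, Ifi44 and Ifi44l. The median over the members was -0.15 and over all genes -0.01 on the log2 scale.

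With LPS the call count was again 0 of 35, where 0.772% of genes tested were called between genotypes, 0.281% as higher and 0.49% as lower in KO. An unadjusted p under 0.05 was reached by 3 members, where 16.9% of genes reached it, and DESeq2 called 1, Oasl1, as lower, where it called 8.2% of genes in either direction. These were Oasl1 with -1.19 ± 0.32 (unadjusted p = 0.00645, edgeR adjusted p = 0.122), Mx2 with -1.01 ± 0.39 (0.0327 and 0.245) and Rtp4 with 0.86 ± 0.32 (0.0291 and 0.231). Without WT LPS library 1, 2 members were called lower, Oasl1 (edgeR adjusted p = 0.0413) and Mx2 (-1.46, adjusted p = 0.0374), a share near the 6.43% of all genes called in that fit. The libraries did not overlap for 6 lower members (17.1%, against 18.1% of genes) and 3 higher ones, Oas1a, Ifitm3 and Rtp4 (8.57%, against 18%). The 6 were Isg15, Herc6, Oas1b, Oasl1, Mx2 and Ifi35. The median over members and over all genes was -0.01.

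**Figure D4:**
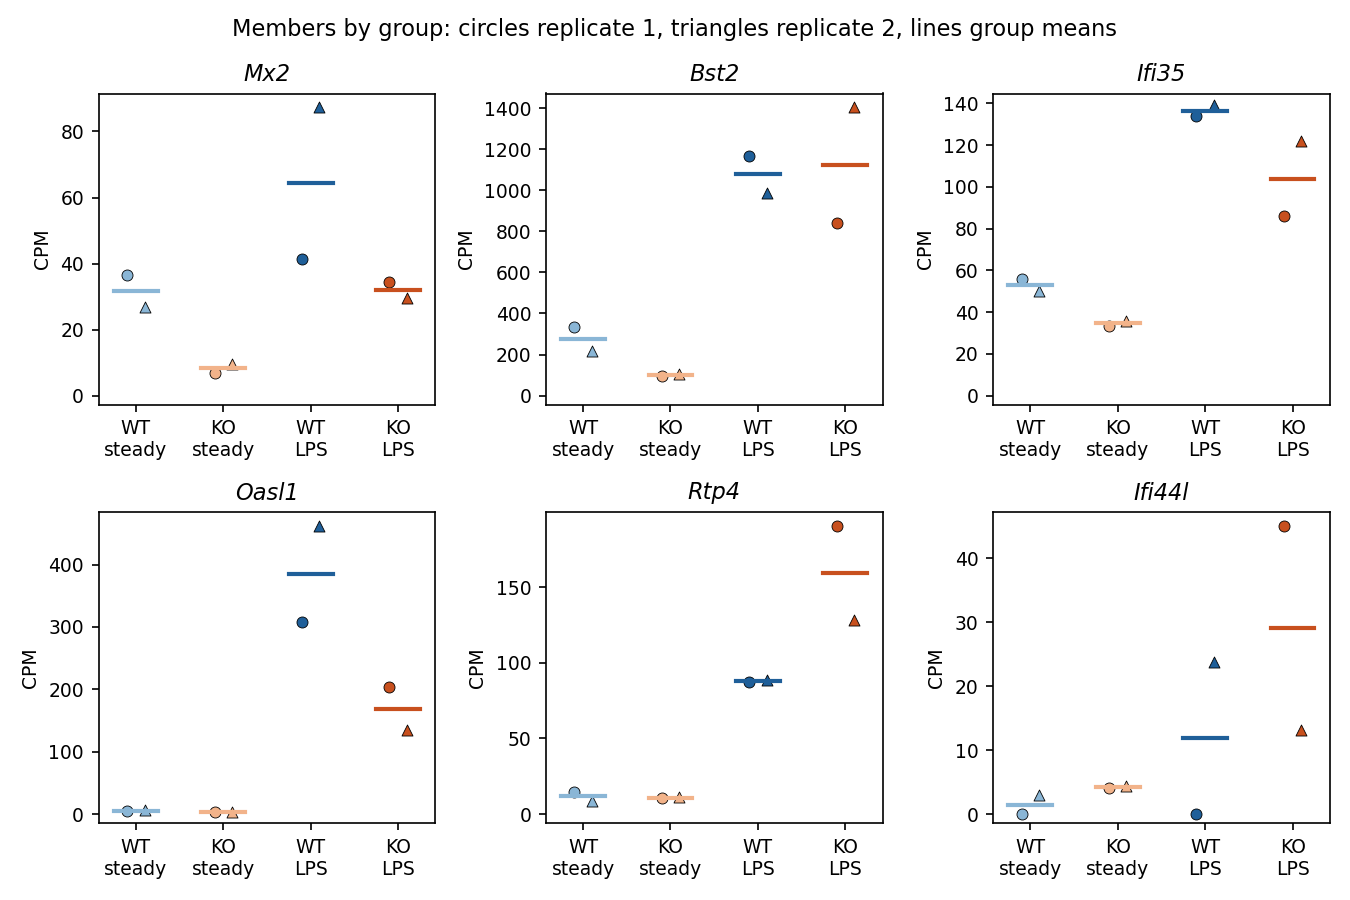
CPM in the 4 groups for Mx2, Bst2, Ifi35, Oasl1, Rtp4 and Ifi44l, with 1 point for each library and a line for the group mean. Mx2 and Ifi35 lie lower in KO under both treatments, Bst2 lies lower at steady state alone, Oasl1 lies lower under both, Rtp4 lies higher with LPS, and Ifi44l is at 0 in the WT libraries numbered 1.

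The LPS libraries of each genotype lay apart along the members. In 24 of 35 members (68.6%) WT LPS library 2 and KO LPS library 1 were the higher ones of their groups, where 39.4% of genes tested showed this. The opposite pair was higher for 6 members, Isg15, Usp18, Rsad2, Isg20, Bst2 and Xaf1 (17.1%, against 36.5% of genes). Members of the first set had a median of 4661.5 exon bases and those of the second 2325, against 5009 and 3814.5 over all genes. Library 2 minus library 1 of a member correlated with its exon length at a Spearman's rho of 0.456 in WT with LPS and -0.499 in KO with LPS, over 35 members that share libraries. Over all genes with a length the values were 0.112 and -0.205. At steady state they were 0.378 in WT and -0.32 in KO over the members, and 0.369 and -0.0077 over all genes. The steady-state libraries also lay apart, with 29 of 35 members higher in library 1 in WT and 29 higher in library 2 in KO. The part of exon length in the members' differences between libraries was not tested. With the pair WT LPS 1 and KO LPS 2 left out, 34 members were called higher in the mean over genotypes and Mx1 lower, in a fit that called 30.6% of all genes in either direction.

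**Figure D5:**
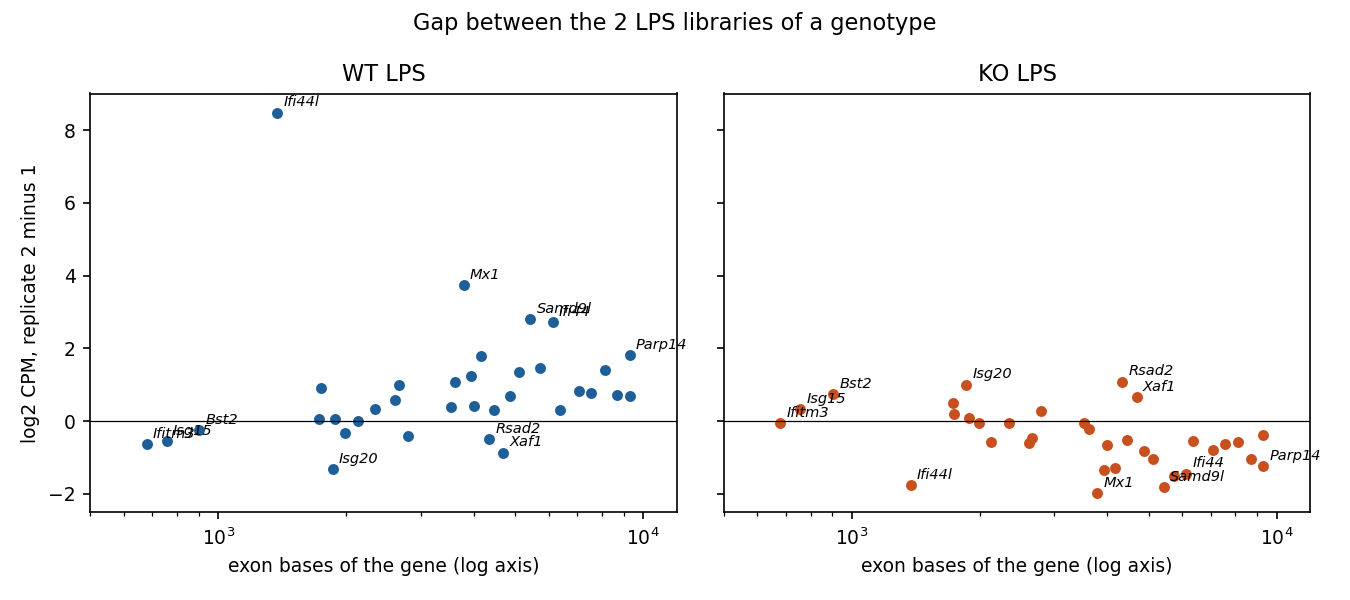
Log2 level in library 2 minus library 1 of a group (vertical) against exon length on a log axis (horizontal) for the members, in 1 panel for WT with LPS and 1 for KO with LPS. Longer members lie more often above 0 in WT (rho 0.456) and below 0 in KO (rho -0.499), and the point far above the rest in WT is Ifi44l.

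Genes of the chain that drives the effectors were read from a list of 36, of which 32 could be tested. In the mean over genotypes 14 rose and 1, Tmem173, the adaptor STING, fell, against 13.8% and 14.8% of genes tested. In WT 5 rose (Irf7, Cd14, Socs1, Socs3 and Ddx58), against 3% of all genes, and in KO 10, against 5.3%. Irf7, the factor that amplifies interferon production, was at 25.7 and 12.1 CPM in WT and 12.6 and 19.0 CPM in KO, and at 1440 and 1047 CPM in WT and 1253 and 2262 CPM in KO with LPS. It thus had a mean log2 change of 6.42 (edgeR adjusted p = 0.000357), near that of Rsad2. Stat2 was at 174 and 129 CPM in WT and 121 and 116 CPM in KO, and at 338 and 597 CPM in WT and 360 and 197 CPM in KO with LPS. Stat2 and Irf9, which act together at the ISRE, rose by 1.43 ± 0.29 and 0.66 ± 0.15 (edgeR adjusted p = 0.0125 and 0.0197). For the receptor, Ifnar2 rose by 1.89 (edgeR adjusted p = 0.0044) and Ifnar1 had 0.41 ± 0.16 (adjusted p = 0.0847). Ifnb1, the interferon beta gene, had 1 and 0 reads in WT and 0 and 3 in KO at steady state, and 8 and 8 in WT and 1 and 2 in KO with LPS, and was too low to test. Ifna2, Ifna4 and Ifna5 had 0 reads in all 8 libraries. Between genotypes no gene of this list was called by edgeR, with 0 at an unadjusted p under 0.05 at steady state and 6 of 32 (18.8%) with LPS, near the 16.9% of all genes. Read after their values were seen, the 6 were Ifnar1, Irf5, Irf8, Ticam1, Ticam2 and Traf3. Irf8, a factor of dendritic cell development, was at 2022 and 2292 CPM in WT and 568 and 266 CPM in KO with LPS, a log2 difference of -2.37 ± 0.42 (edgeR adjusted p = 0.0608).

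Members with an ISRE match in their window had a median mean log2 change of 3.82 (11 members, 1.18 to 6.61), and those with a window and no match 2.86 (15 members, 0.56 to 5.84). The ranges overlap, and Oasl1, at 5.84, has no match in its window. The 11 with a match include Eif2ak2, the lowest, and Rsad2, the highest of all members.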

How the data were processed

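RNA of the 8 libraries was purified with an RNeasy plus kit and made into libraries with a TruSeq RNA kit, per the labels' protocols. That kit does not mark strand. The authors deposited raw read counts per gene, whole numbers that were not normalized, in 1 column per library. Per the submitters' processing notes, mm10 was the build, and the tools listed, with no roles, were edgeR 3.6.8, Subread 1.4.3 with featureCounts, and TopHat2 2.0.8. The sources used here do not give the treatment of reads matching more than 1 gene. Values in families of related genes (Oas1a, Oas1b and Oas1g, and to a lesser degree the IFIT genes) are therefore uncertain.

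Groups and replicate numbers came from the sample titles. For the tests (edgeR 4.0.16, R 4.3.3), genes were kept with filterByExpr (minimum count 10, minimum total 15), which left 12442, TMM factors scaled library sizes, and the quasi-likelihood F test was fitted with 1 coefficient per group over all 8 libraries (4 residual and 3.4 prior degrees of freedom, biological coefficient of variation 0.34). Tests were two-sided, and a call means an adjusted p (Benjamini-Hochberg, over all genes tested) under 0.05. CPM uses the scaled sizes, and the SE is the log2 change divided by the square root of F. Libraries of a group differed by more than sampling noise. The procedure was tested on simulated data. Exon lengths and positions came from GENCODE M21 and promoter sequences from RefSeq, both on GRCm38.

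The members, the gene lists and the naming rule were chosen with earlier results of these data known. Values in every library are given for the 2 members of each role with the largest mean CPM, the 4 highest and 4 lowest changes in WT, in KO and in their difference, and the members past an unadjusted p under 0.05 between genotypes, the last chosen after their values were seen. Ifi44l was added after its values were seen. Alternatives tried were DESeq2 1.42.0, other scaling factors (RLE, upper quartile), other filters (none, or CPM from 1 in 2 libraries), a robust dispersion, a fit of the compared groups alone, a block by replicate number, and omission of each library. Promoter motifs were matched on both strands: the ISRE core, the NF-kB motif, TTCNNNGAA and AGATAA. A block with exchanged KO numbers, a block within genotype, leaving out a pair of LPS libraries and a correction for exon length were added after seeing the data. The values of 1 gene that the naming rule gave are not reported here.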

Additional observations from a re-analysis of the deposited data

How the results depend on the processing

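With 2 libraries a group, counts of members called depended most on single steady-state libraries. Over fits that left out 1 library, 8 to 28 members were called with LPS in WT, 9 to 28 in KO and 26 to 34 in the mean over genotypes, where edgeR called 25, 27 and 29. A group reduced to 1 library is assumed to vary like the others. The lowest values came without WT steady-state library 1 (8) or 2 (9) and without KO steady-state library 1 (9) or 2 (13). In every such fit, 7 members were called in WT, 9 in KO and 26 in the mean. The members' median log2 change in WT ran from 2.31, without WT steady-state library 2, to 2.80, and the median difference of the responses from -0.22 to 0.54, without WT LPS library 2. KO against WT with LPS gave 0 to 2 calls, with 2 without WT LPS library 1. Fitting only the groups compared gave 16 calls in WT, with 1.89% of all genes, and 28 in KO, with 19.5%. DESeq2 gave 1 call between genotypes at steady state (Mx2) and 1 with LPS (Oasl1).

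Leaving out 1 library turned the sign of 4 members in WT, 1 in KO, 1 in the mean, 25 in the difference of the responses, 19 in KO against WT at steady state and 20 with LPS, all among values that edgeR did not call. The difference of the responses ran from -1.35 to 0.0764 for Isg15, from -1.56 to 0.40 for Cmpk2 and from -2.26 to 0.88 for Ifi44. Among the members described in every library, the WT change ran from -0.31 to 1.11 for Adar, from -0.0683 to 1.75 for Parp14 from -0.86 to 1.96 for Samd9l and from -6.997 to 10.01 for Ifi44l, the mean from -2.11 to 6.397 for Ifi44l, and the KO change from -0.21 to 1.28 for Dtx3l. The cause was not tested.

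Same-numbered libraries deviated together between WT steady state and WT with LPS (correlation 0.259) and in opposite directions between WT and KO with LPS (-0.551), so 1 number does not pair all 4 groups. Within WT the correlation was 0.79 over the members. Yet 29 members were higher in library 1 at steady state, and 27 were higher in library 2 with LPS. Most members thus deviated in opposite directions between the WT groups. Ifi44l, with 0 reads in both WT libraries numbered 1, had the largest log2 gaps, 5.963 at steady state and 8.487 with LPS. The correlation without Ifi44l was not tested. Within KO the correlation was 0.116 over all genes and 0.131 over the members. With 2 numbers a group this is a hint from the data, not the design. With the number as a replicate block over all groups 19 members were called in WT (3.74% of all genes), 22 in KO (6.24%), 28 in the mean (20.2%) and 0 between genotypes. With a replicate block within genotype, added after seeing the data, 25 were called in WT (7.93% of all genes), 28 in KO (14.2%), 30 in the mean (29.2%) and 0 in the difference of the responses. With the KO LPS numbers exchanged, the crossed block called 273 genes between genotypes with LPS, among them 1 member (Oasl1), against 8 genes in the block as labelled. Without the pair WT LPS 1 and KO LPS 2, 2 members were called there, Oasl1 and Mx1, with 7.87% of all genes. With a correction for exon length 27, 27 and 30 members were called in WT, KO and the mean, with 7.36%, 11.8% and 33.4% of all genes.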

Other observations

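The genes around Mx1 and Mx2 were read after their values had been seen. Within 500 kb of these genes on chromosome 16, 5 of 11 listed genes, the Mx genes included, were lower in both KO libraries than in both WT libraries at steady state, and 1 was higher, where 23.4% and 22.1% of genes tested were. The 3 besides the Mx genes were Bace2, with 88 and 94 reads in WT and 7 and 14 in KO, Fam3b, with 23 and 32 against 12 and 12, and Ripk4, with 26 and 66 against 6 and 11. Bace2 encodes a membrane protease. The other 5 overlapped between genotypes at steady state: Tmprss2, directly beside Mx2, Dscam, C2cd2, Prdm15 and Zbtb21. With LPS, 4 of the 11 were lower in both KO libraries, Mx2, Bace2, Fam3b and Dscam, and 1 was higher. Of the genes tested 18.1% were lower and 18% higher in this way. Bace2 was near the floor there, with 1 and 11 reads in WT and 1 and 0 in KO. Mx1 lay in none of these sets with LPS, because its libraries overlapped. The counts for this region used total library sizes and every listed gene, tested or not. The shares of genes tested used the scaled sizes, so counts and shares are not strictly alike. The region was chosen for the Mx genes, so their own place in these counts is no separate result.

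Around Ifi44 and Ifi44l on chromosome 3, Dnajb4 had 140 and 176 reads and Fubp1 493 and 663 in the WT steady-state libraries 1 and 2. The absence of Ifi44l reads in the WT libraries numbered 1 was therefore not seen in these 2 neighbours. Ifi44, which lies closer, was lower in the same libraries. It was at 1.55 against 5.43 CPM in WT libraries 1 and 2 at steady state and at 32.0 against 212 CPM with LPS. The cause was not tested. Ptgfr, the closest listed gene besides Ifi44, had 3 reads over all 8 libraries and carries no information.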
